A study of Bos taurus with 18 samples.

Results

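The galectins LGALS1, LGALS3, LGALS4, LGALS8 and LGALS9, together with the galectin-3 binding protein LGALS3BP, were followed in bovine endometrium across the early luteal phase and after a depot progestin. The 6 genes were selected by symbol from the 38001 rows of the count table, each symbol stood on 1 row, and all 6 passed the filter on low counts. The set was put together with earlier results of these same libraries in view, the levels and changes of its genes among them. The values, intervals and p-values given here are therefore a description, and no count of galectins is read as evidence about the set.

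Endometrial cells were brushed from 6 Holstein cows, in the uterine horn next to the ovary that bore the corpus luteum, and poly(A) RNA of each brushing was sequenced as 1 library. Every cow was synchronized with Ovsynch, a hormone programme that times ovulation, and day 0 was the day of estrus. Cows A, B and C formed the 17-OHPC/P4 arm and cows D, E and F the P4 arm, and each cow gave 3 libraries, which makes 6 groups of 3. Control day 4 and control day 7 came from a first cycle with no progestin given, so the same 2 control groups in each arm carried no treatment. Treated day 7 came from a second synchronized cycle of the same cow. On day 4 of that cycle a depot of 17-OHPC (hydroxyprogesterone caproate, 100 mg) and progesterone (P4, 10 mg) was given to cows A to C, and cows D to F were given P4 alone (100 mg). The control cycle came first in all 6 cows, so cycle order and treatment cannot be told apart. The arms hold different cows and also differ in the P4 dose.

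Galectins are lectins that bind beta-galactoside sugars on glycoproteins and glycolipids. They are made in the cytosol without a signal peptide, leave the cell by an unconventional route, and act both outside the cell, where they cross-link receptors and matrix, and inside it, where some of them recognise damaged endosomes and lysosomes. In the uterus they are studied for their part in the attachment of the conceptus and in the control of maternal immune cells, and galectins of the ruminant uterus are known to respond to progesterone and to interferon tau, the signal by which the conceptus makes itself known.

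The libraries held between 29347255 and 40733544 counts, and values are given as CPM, counts divided by the library's total on a common scale, with TMM factors of 0.881 to 1.16. The epithelial markers EPCAM (260 to 639 CPM), KRT8 (316 to 801 CPM) and CDH1 (526 to 1277 CPM) were high in all 18 libraries, as the label of a brushed endometrium implies. The leukocyte marker PTPRC ranged from 33.6 to 120 CPM and the stromal marker COL1A1 from 9.58 to 1373 CPM. Cow C stood apart, with summed stromal markers of 7427, 5355 and 3581 CPM on control day 4, control day 7 and treated day 7, against 299.5 to 3564 CPM in the libraries of the other cows. Its red cell markers summed to 2387, 4172 and 360 CPM, against at most 5.64 CPM elsewhere. Gene lengths on the build of the count table were not used, so levels are compared between libraries and never between genes.

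LGALS3, a galectin with a collagen-like tail that forms lattices at the cell surface and marks ruptured endosomes, had the most uneven pattern between the arms. In the 17-OHPC/P4 arm it stood at 252, 207 and 242 CPM in cows A, B and C on control day 4, at 84.9, 228 and 251 CPM on control day 7, and at 139, 158 and 171 CPM on treated day 7. In the P4 arm it stood at 61.1, 57.7 and 55.8 CPM in cows D, E and F on control day 4, at 181, 187 and 176 CPM on control day 7, and at 101, 68.3 and 55.7 CPM on treated day 7. The P4-arm cows were low on control day 4, all high on control day 7 and low again on treated day 7. The 17-OHPC/P4-arm cows were already high on control day 4, and cow A alone was low on control day 7.

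**Figure D1:**
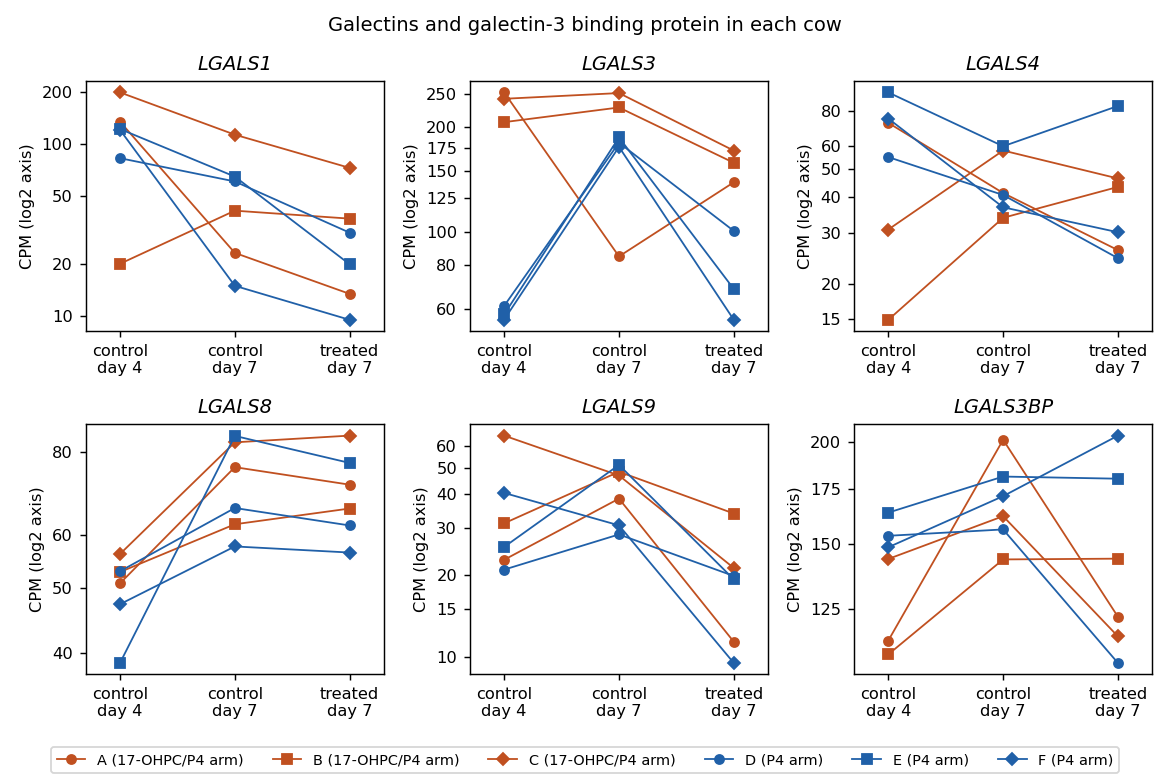
CPM on a log2 axis for each of the 6 genes, with 1 line per cow joining control day 4, control day 7 and treated day 7 (orange, cows A to C of the 17-OHPC/P4 arm; blue, cows D to F of the P4 arm). LGALS3 in the 3 P4-arm cows goes from 55.8 to 61.1 CPM up to 176 to 187 CPM and back to 55.7 to 101 CPM, and LGALS8 is higher on control day 7 than on control day 4 in all 6 cows.

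The first question was how the genes differed from day 4 to day 7 without treatment, the days over which progesterone of the new corpus luteum climbs. Over both arms LGALS8 rose and was the only 1 of the 6 called by edgeR's quasi-likelihood test with Benjamini-Hochberg adjustment over 19638 genes, beside 10.6% of all genes tested (2073 genes, and 3272 with the cow as a block). LGALS8 has a pair of carbohydrate-binding domains and recruits an autophagy receptor to damaged vesicles. It stood at 50.8, 52.9 and 56.2 CPM in cows A, B and C on control day 4 and at 76.0, 62.3 and 82.8 CPM on control day 7. It went from 53.0, 38.6 and 47.3 CPM in cows D, E and F to 66.0, 84.6 and 57.7 CPM. All 6 cows were higher on day 7, and with TMM scaling the lowest day 7 library lay above the highest day 4 library. Without TMM factors all 6 were still higher, but cows D (58.0 and then 59.2 CPM) and F (54.9 and then 55.5 CPM) barely so. The days then overlapped, as cow C had 59.5 CPM on day 4. With TMM scaling LGALS8 was the 1 of the 6 genes whose groups did not overlap over both arms, beside 3.69% of all genes.

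The fitted log2 change of LGALS8 over both arms was 0.53 ± 0.13 (SE, the same 6 cows on both days), with an adjusted p of 0.0191 from edgeR. This main fit had no term for the cow, so its SE and p do not use the pairing. The call was lost when the control day 7 library of cow A (adjusted p = 0.0514), the control day 4 library of cow E (0.0580) or the control day 7 library of cow E (0.0511) was left out. It held without either control library of cow C (0.0356 and 0.0357). Within the arms the change was 0.47 ± 0.18 (adjusted p = 0.409) for 17-OHPC/P4 and 0.59 ± 0.18 (adjusted p = 0.0577) for P4 by edgeR. With the cow as a block, the P4-arm value was called at an adjusted p of 0.0468.

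LGALS3 rose in the P4 arm, by 1.64 ± 0.31 on the log2 scale (edgeR adjusted p = 0.00934, n = 3 cows), and was the 1 of the 6 genes called there, beside 8.65% of all genes (1698 genes, and 2975 with the cow as a block). Within single cows the log2 ratio was 1.56, 1.70 and 1.66, a mean of 1.64 ± 0.07 (SD, n = 3). The call held when any 1 of the 6 libraries was left out, with adjusted p from 0.0119 to 0.04996. In the 17-OHPC/P4 arm none of the 6 genes was called, beside 0.0407% of all genes (8 genes, and 108 with the cow as a block), and 2 of the 6, LGALS8 and LGALS3BP, had an unadjusted p below 0.05, beside 9.62% of all genes. DESeq2 called 409 genes in that arm and none of the 6. LGALS3 there had a log2 change of -0.31 ± 0.30 (adjusted p = 0.799), and the sign turned to 0.04 without the control day 7 library of cow A.

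The difference between the arms in this untreated change was tested directly. For LGALS3 it was -1.95 ± 0.43 on the log2 scale (95% interval -2.87 to -1.03), with an unadjusted p of 0.000432 and an edgeR adjusted p of 0.369. DESeq2 gave an adjusted p of 0.00986, and over all alternatives the adjusted p ran from 0.00986 to 0.833. None of the 6 genes was called by edgeR, beside 0% of all genes, and 1514 genes had an unadjusted p below 0.05 where DESeq2 called 88. On control day 4 itself LGALS3 was higher in cows A to C than in cows D to F by 2.01 ± 0.31 on the log2 scale (edgeR adjusted p = 0.0102), the 1 of the 6 genes called, beside 2.76% of all genes. No progestin had been given to either arm on that day.

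This control day 4 difference in LGALS3 lost its call without the library of cow E (adjusted p = 0.0604) or of cow F (0.0595), and when the 2 groups were fitted alone (0.0677). It held without the library of cow C (0.0371). Over all alternatives its adjusted p ran from 1.52e-07 to 0.0677. On the same day the ciliated cell markers had positive values in 10 of 10 and a median log2 difference of 2.07, the stromal markers in 11 of 12 with a median of 1.21, and no marker of either list was called. Summed ciliated cell markers ranged from 217 to 1349 CPM in cows A to C and from 134 to 209.7 CPM in cows D to F. Summed stromal markers were 697, 436 and 7427 CPM in cows A, B and C. In cows D, E and F they were 2311, 1551 and 1668 CPM, so only cow C was above the P4-arm cows. The part of these cells in the LGALS3 difference was not tested. Genes known to follow progesterone in the early luteal endometrium also differed in sum between the arms on control day 4. Their sum ranged from 6666 to 22184 CPM in cows A to C and from 2483 to 2944 CPM in cows D to F. The list mixes genes that rose with genes that fell by control day 7, and abundant genes weigh most in the sum. Its members differed in this. In cows A to C and cows D to F, mean ANPEP was 711 and 151 CPM, SLC1A1 166 and 161 CPM, and DGAT2 2.39 and 2.38 CPM. A link of that sum with LGALS3 was not tested. On control day 7 the arms differed in LGALS3 by 0.05 ± 0.30 (95% interval -0.59 to 0.70), and none of the 6 genes was called, beside 0.00509% of all genes. At that day none of the 6 had an unadjusted p below 0.05 by edgeR, whereas 2088 genes of the whole table did, and DESeq2 called 365 genes.

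LGALS1, a small galectin of stromal and endothelial cells that binds glycans on T cells, had the widest spread. It stood at 135, 20.2 and 199.6 CPM in cows A, B and C on control day 4, at 23.4, 41.1 and 113 CPM on control day 7, and at 13.5, 36.9 and 72.8 CPM on treated day 7. In cows D, E and F it stood at 82.8, 122 and 121 CPM, then at 60.7, 64.8 and 15.04 CPM, and at 30.6, 20.05 and 9.54 CPM on treated day 7. Cow B was the lowest on control day 4 and the only cow with a higher value on control day 7. Over both arms the change from control day 4 to control day 7 was -1.11 ± 0.57 on the log2 scale (95% interval -2.33 to 0.12, edgeR adjusted p = 0.233). In bulk RNA of a brushing, fewer cells of a type and less RNA per cell cannot be told apart.

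LGALS4, an epithelial galectin of apical membranes in the gut, stood at 72.5, 14.9 and 30.8 CPM in cows A, B and C on control day 4, at 41.3, 33.9 and 58.1 CPM on control day 7, and at 26.1, 43.4 and 46.4 CPM on treated day 7. In cows D, E and F it stood at 55.1, 92.6 and 75.1 CPM, then at 40.7, 60.1 and 36.9 CPM, and at 24.5, 83.0 and 30.2 CPM on treated day 7. The cows of the P4 arm and cow A were lower on control day 7 than on control day 4, cows B and C were higher, and the groups overlapped in both arms. Its change over both arms was -0.26 ± 0.37 (edgeR adjusted p = 0.701), and it turned to 0.13 without the control day 4 library of cow A.

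LGALS9, a galectin with a pair of carbohydrate-binding domains that is induced by interferons and binds the checkpoint receptor HAVCR2, stood at 22.8, 31.1 and 65.7 CPM in cows A, B and C on control day 4 and at 38.4, 48.3 and 46.8 CPM on control day 7. In cows D, E and F it stood at 21.0, 25.5 and 40.3 CPM and then at 28.3, 51.2 and 30.6 CPM. It was higher on control day 7 in 4 of 6 cows, with cows C and F lower. The fitted change was 0.25 ± 0.31 (edgeR adjusted p = 0.664).

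LGALS3BP, a secreted and heavily glycosylated ligand of LGALS3 that is also induced by interferons, stood at 114, 110.1 and 144 CPM in cows A, B and C on control day 4 and at 201, 144 and 162 CPM on control day 7. In cows D, E and F it stood at 154, 164 and 149 CPM and then at 156, 181 and 172 CPM. With TMM scaling it was higher on control day 7 in 6 of 6 cows, as was LGALS8, which makes 2 of the 6 genes beside 10.5% of all genes. For LGALS3BP in the P4 arm this direction rested on the TMM factors. Without them LGALS3BP was lower on control day 7 in cows D (168 and then 140 CPM), E (183 and then 170 CPM) and F (173 and then 165 CPM). The groups overlapped, and the change of 0.29 ± 0.15 (95% interval -0.02 to 0.61) had an edgeR adjusted p of 0.221. LGALS3 over both arms had a value of 0.66 ± 0.21 (adjusted p = 0.0623), which became 0.84 (adjusted p = 0.00627) without the control day 7 library of cow A.

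The median change of the 6 genes from control day 4 to control day 7 over both arms was 0.27 on the log2 scale, beside -0.05 over all genes tested. The fitted values went different ways, from -1.11 for LGALS1 to 0.66 for LGALS3. Over the same days 2 of 15 T and NK cell markers were called lower, beside 4.28% of all genes, IL2RB (-0.88 ± 0.21, edgeR adjusted p = 0.0174) and CD3E (-0.80 ± 0.21, adjusted p = 0.0292). All 15 had negative values, with a median of -0.82. Of 12 epithelial markers 1 was called higher, beside 6.27% of all genes, the tight junction gene CLDN7 (1.28 ± 0.26, adjusted p = 0.00865). The epithelial list had 6 positive and 6 negative values and a median of -0.0005. No marker of ciliated, stromal, smooth muscle, endothelial, macrophage, neutrophil, B or red blood cells was called. The part of changing cell types in the values of the 6 genes was not tested. In the plot of changes within single cows, the panel of control day 7 against control day 4 shows the 3 P4-arm points of LGALS3 close together and those of LGALS1 far apart (SD of 0.07 and 1.36).

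**Figure D2:**
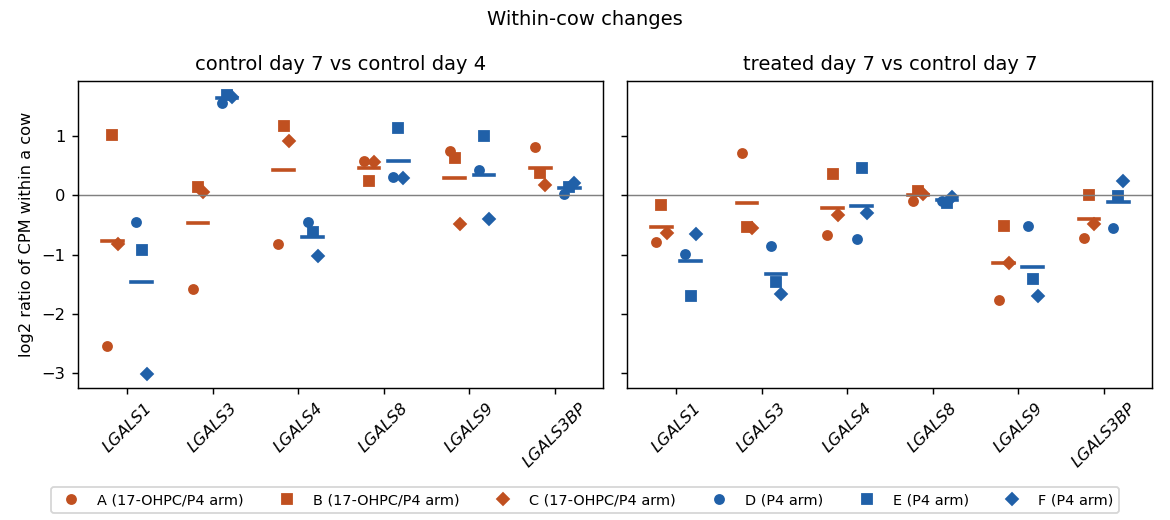
Log2 ratio of CPM within each cow for control day 7 against control day 4 (left) and treated day 7 against control day 7 (right), with 1 point per cow and a bar at the mean of each arm (n = 3). On the left, LGALS3 of the P4 arm has a mean of 1.64 ± 0.07 (SD). On the right, LGALS1 and LGALS9 lie below 0 in all 6 cows.

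The second question was how the treated cycle differed from the control cycle on day 7. No gene was called by edgeR over both arms (0% of all genes, 850 genes with an unadjusted p below 0.05), in cows A to C alone (0%, 371 genes) or in cows D to F alone (0%, 596 genes). None was called with the cow as a block either, and DESeq2 called 2, 1 and 2 genes in these 3 comparisons, none of them a galectin or LGALS3BP. Values for the 6 genes are given below with that limit. All 6 had a negative fitted value over both arms, with a median of -0.50 on the log2 scale, beside -0.01 over all genes tested.

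LGALS9 stood at 11.4, 33.9 and 21.3 CPM in cows A, B and C on treated day 7, after 38.4, 48.3 and 46.8 CPM on control day 7. In cows D, E and F it stood at 19.9, 19.3 and 9.48 CPM, after 28.3, 51.2 and 30.6 CPM. Every treated library was below the control day 7 library of its cow, and within each arm the treated and control libraries did not overlap. The groups were separate for 1 of the 6 genes, LGALS9, in the 17-OHPC/P4 arm, beside 8.55% of all genes, and for 2, LGALS3 and LGALS9, in the P4 arm, beside 5.75%. The mean log2 ratio within cows was -1.17 ± 0.56 (SD, n = 6). The fitted values were -1.01 ± 0.45 in the 17-OHPC/P4 arm (edgeR adjusted p = 0.990) and -1.18 ± 0.45 in the P4 arm (adjusted p = 1).

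LGALS1 was also below its control day 7 value in all 6 cows, with a mean log2 ratio within cows of -0.82 ± 0.51 (SD, n = 6). LGALS1 and LGALS9 thus make 2 of the 6 genes that were lower in every cow, beside 2.16% of all genes. The fitted values of LGALS1 were -0.53 ± 0.80 and -1.22 ± 0.81 in the 17-OHPC/P4 and P4 arms, and the first turned to 0.35 without the control day 7 library of cow C. Between cows LGALS1 ranged on treated day 7 from 9.54 to 72.8 CPM, so the groups overlapped in both arms.

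LGALS3 was below its control day 7 value in 5 of 6 cows, and cow A was higher on treated day 7 (139 against 84.9 CPM). Within the P4 arm the mean log2 ratio was -1.32 ± 0.42 (SD, n = 3) and the groups did not overlap. The fitted value there was -1.28 ± 0.31 (unadjusted p = 0.000901, edgeR adjusted p = 1), and it was -0.27 ± 0.30 in the 17-OHPC/P4 arm. The latter was -0.62 without the control day 7 library of cow A and -0.00383 without that of cow C. LGALS1, LGALS3, LGALS8 and LGALS9 were lower in all 3 cows of the P4 arm, 4 of the 6 genes, beside 9.40% of all genes. The LGALS8 ratios among these were small, -0.09, -0.14 and -0.03 on the log2 scale in cows D, E and F. In the 17-OHPC/P4 arm only LGALS1 and LGALS9 were lower in all 3 cows, beside 20.8% of all genes.

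LGALS8 stood at 71.5, 65.8 and 84.7 CPM in cows A, B and C and at 62.1, 77.1 and 56.5 CPM in cows D, E and F on treated day 7. These libraries lay close to the control day 7 library of the same cow, with fitted values of 0.01 ± 0.18 (95% interval -0.38 to 0.39) in the 17-OHPC/P4 arm and -0.09 ± 0.18 (-0.48 to 0.30) in the P4 arm. LGALS3BP stood at 122, 144 and 116 CPM in cows A, B and C and at 107, 180.2 and 203 CPM in cows D, E and F. It was lower than on control day 7 in 4 of 6 cows, with values of -0.41 ± 0.21 for 17-OHPC/P4 and -0.05 ± 0.21 for P4. LGALS4 had values of -0.20 ± 0.52 and 0.00 ± 0.52, and the latter took a negative sign under most other settings. For all 6 genes the edgeR adjusted p lay between 0.990 and 1 for 17-OHPC/P4, and for P4 it was 1.

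Macrophage markers were lower on treated day 7 in most cows. All 10 tested had a negative value over both arms, with a median of -1.20 on the log2 scale, and none was called. Their sum ranged from 114 to 383 CPM on control day 7 and from 36.1 to 187 CPM on treated day 7 in the 17-OHPC/P4 arm, and from 123 to 426 CPM and from 60.7 to 159 CPM in the P4 arm. The sum was lower in 5 of 6 cows, and in cow B it was higher (121 and then 156 CPM) while LGALS9 was lower. The stromal markers had negative values in 12 of 12 with a median of -0.60, none called, and the epithelial markers had a median of -0.05. The stromal sum was higher on treated day 7 in cows A (305 and then 494 CPM) and F (299.5 and then 348 CPM), where LGALS1 was lower.

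The neutrophil markers had negative values in 6 of 9 with a median of -0.37, and their sum was lower in 6 of 6 cows. It went from 81.1, 152 and 261 CPM on control day 7 to 6.33, 141 and 37.7 CPM in cows A, B and C, and from 514, 281 and 65.4 CPM to 100.4, 42.7 and 57.8 CPM in cows D, E and F. The smooth muscle and pericyte markers had positive values in 8 of 8 in the P4 arm, with a median of 1.11, and none was called. In the 17-OHPC/P4 arm their sum was mixed. It was higher on treated day 7 in cows A (171 and then 321 CPM) and B (153 and then 207 CPM). In cow C it was lower (520 and then 452 CPM). No marker of these 5 lists was at 0 in all libraries. The part of macrophages, neutrophils and stromal cells in the values of LGALS1 and LGALS9 was not tested.

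**Figure D3:**
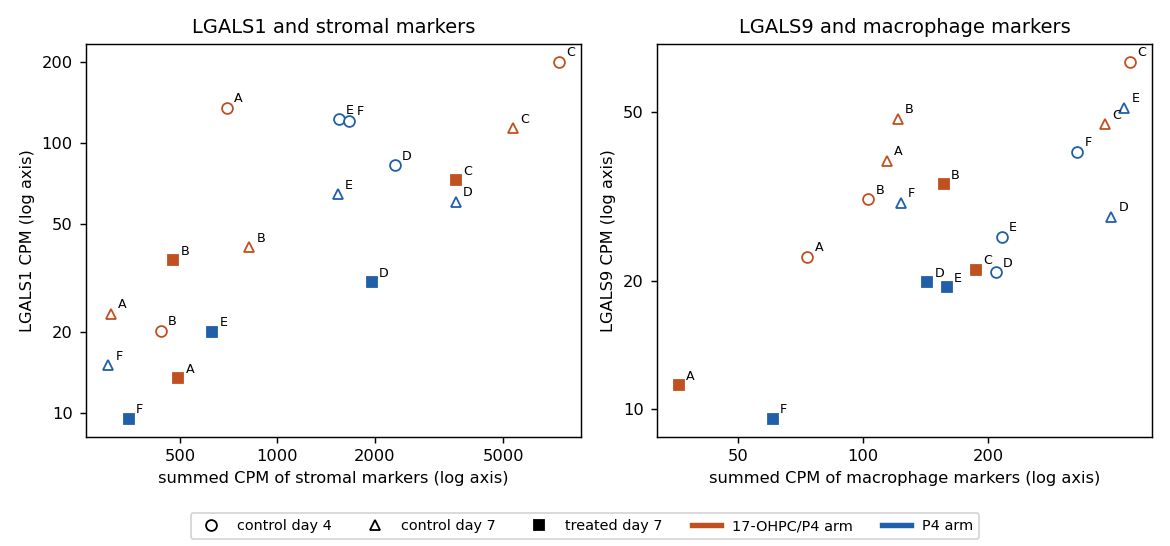
LGALS1 against the summed CPM of the stromal markers (left) and LGALS9 against the summed CPM of the macrophage markers (right), both on log axes, with 1 point per library and the letter of its cow. Treated day 7 of cow F has low sums (348 CPM of stromal and 60.7 CPM of macrophage markers) with low LGALS1 (9.54 CPM) and LGALS9 (9.48 CPM). Other libraries differ from this. Control day 4 of cow A has 697 CPM of stromal markers with LGALS1 at 135 CPM. Control day 7 of cow B has 121 CPM of macrophage markers with LGALS9 at 48.3 CPM. Cow C lies at the upper end of the stromal sums.

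Interferon-stimulated genes were examined because LGALS9 and LGALS3BP are known to respond to interferons. Of 34 tested, 32 had a negative value on treated day 7 over both arms, with a median of -0.64 on the log2 scale, and none was called. Their summed level ranged over 1085 to 2182 CPM on control day 7 and 830 to 1176 CPM on treated day 7 in the 17-OHPC/P4 arm. For the P4 arm it ranged over 939 to 1368 CPM and then 760.4 to 1192 CPM. The 2182 CPM on control day 7 was that of cow A. The sum was higher on treated day 7 in cow B (1110 and then 1176 CPM), where LGALS9 was lower. It was lower in the other cows. The part of interferon in the values of LGALS9 and LGALS3BP was not tested. From control day 4 to control day 7 the list had 1 member that rose, RIGI (1.22 ± 0.23, edgeR adjusted p = 0.00545), 1 that fell, CXCL10 (-1.78 ± 0.43, adjusted p = 0.0187), and a median of -0.02. These stand beside 6.27% of all genes called higher and 4.28% called lower.

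The third question was whether the 2 progestin preparations differed on treated day 7. The 17-OHPC molecule is a synthetic progestin with a caproate ester that P4 lacks, and the depot given to cows A to C also held a lower dose of P4 than cows D to F received. None of the 6 genes was called between the arms, beside 0.0102% of all genes (2 genes, where DESeq2 called 215 and 1792 genes had an unadjusted p below 0.05). LGALS3 was the 1 of the 6 genes whose groups did not overlap, 139 to 171 CPM in the 17-OHPC/P4 arm and 55.7 to 101 CPM in the P4 arm, beside 13.4% of all genes. Its difference was 1.06 ± 0.31 on the log2 scale (95% interval 0.41 to 1.71, edgeR adjusted p = 0.306).

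The other 5 genes overlapped between the arms on treated day 7, and their intervals spanned 0. LGALS1 differed by 1.03 ± 0.81 (-0.70 to 2.76, edgeR adjusted p = 0.774) and LGALS9 by 0.45 ± 0.45 (-0.50 to 1.40, adjusted p = 0.843). With 1 library left out, LGALS1 ran from 0.33 (without cow C) to 1.47 (without cow D) and LGALS9 from 0.00958 (without cow B) to 0.77 (without cow A). LGALS8 differed by 0.18 ± 0.18 (-0.20 to 0.57, adjusted p = 0.843), the narrowest interval of the 6 genes. LGALS4 differed by -0.25 ± 0.52 (-1.35 to 0.86, adjusted p = 0.950) and LGALS3BP by -0.36 ± 0.21 (-0.81 to 0.09, adjusted p = 0.653). These intervals allow differences in either direction and do not show that the preparations act alike.

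The response itself, treated against control day 7, was compared between the arms with an interaction term. None of the 6 genes was called, beside 0% of all genes by edgeR and by DESeq2, and 247 genes had an unadjusted p below 0.05. LGALS3 had the largest value of the 6, a difference of 1.01 ± 0.43 (95% interval 0.09 to 1.92, unadjusted p = 0.0335, edgeR adjusted p = 1). On control day 7, the untreated day that enters this comparison, the arms differed in LGALS3 by 0.05 ± 0.30. That value ran from -0.21 to 0.40 with 1 library left out. On control day 4, also untreated, the arms differed in LGALS3 by 2.01 ± 0.31, in the same direction as on treated day 7.

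**Figure D4:**
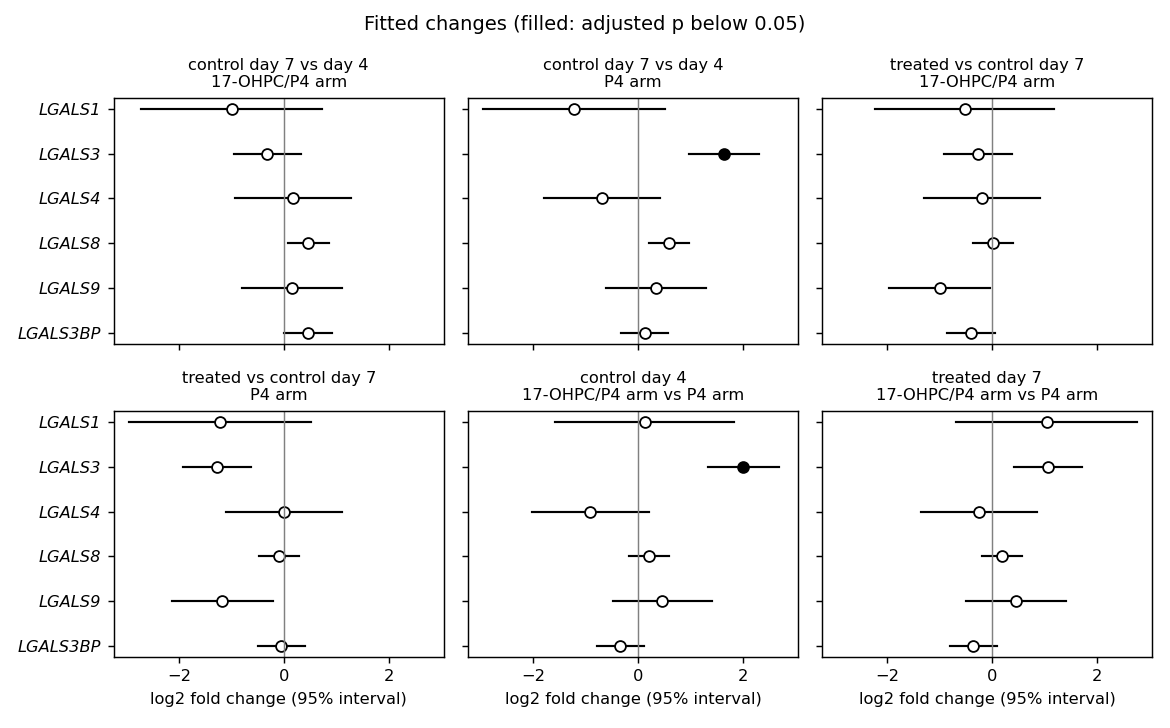
Fitted log2 fold change with its 95% interval for each gene in 6 comparisons, from the edgeR fit over all 18 libraries; filled points have an adjusted p below 0.05. LGALS3 is filled for control day 7 against control day 4 in the P4 arm (1.64) and for control day 4 between the arms (2.01), and no point is filled in the comparisons of treated with control day 7.

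Against control day 4 of the same cows, treated day 7 gave no call among the 6 genes in the 17-OHPC/P4 arm, beside 0.682% of all genes (134 genes, and 1029 with the cow as a block), or in the P4 arm, beside 7.48% (1468 genes, and 2702 with the block). In these comparisons 1 and 2 of the 6 genes had an unadjusted p below 0.05, beside 20.5% and 24.3% of all genes. LGALS1 in the P4 arm had a value of -2.44 ± 0.84 on the log2 scale (edgeR adjusted p = 0.0905) and the groups did not overlap, as was the case for 34.8% of all genes. With the cow as a block it was called, at -2.68 with an adjusted p of 0.0331, and over all alternatives the adjusted p ran from 0.0185 to 0.288. In the 17-OHPC/P4 arm LGALS1 had a value of -1.53 ± 0.82 (adjusted p = 0.298), with cow B higher on treated day 7. With TMM scaling LGALS8 was higher on treated day 7 than on control day 4 in 6 of 6 cows, beside 13.6% of all genes. Without TMM factors LGALS8 was lower on treated day 7 in cow F (54.9 and then 49.8 CPM). Its fitted values were 0.47 ± 0.18 (edgeR adjusted p = 0.180) and 0.50 ± 0.18 (adjusted p = 0.108) in the 17-OHPC/P4 and P4 arms. The groups also did not overlap for LGALS8 and LGALS9 in the P4 arm, but those of LGALS8 did without TMM factors. In the 17-OHPC/P4 arm they did not overlap for LGALS3 and LGALS8, beside 23.9% of all genes.

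Genes that galectins are known to bind or to depend on were counted over control day 4 to control day 7 of both arms. Of 29 ligands and counter-receptors tested, 4 rose and none fell, with a median of -0.28. ANPEP, an apical aminopeptidase, rose by 3.32 ± 0.48 on the log2 scale (edgeR adjusted p = 0.00172). INSR, the insulin receptor, rose by 2.00 ± 0.37 (adjusted p = 0.00521), and CALCOCO2, the autophagy receptor that LGALS8 recruits, rose by 1.67 ± 0.34 (adjusted p = 0.00798). Of 30 enzymes that extend or cap the glycans to which galectins bind, 5 rose and 1 fell, with a median of 0.22. GCNT2, which branches poly-N-acetyllactosamine, rose by 2.24 ± 0.38 (adjusted p = 0.00325). The galactosyltransferases B4GALT3 and B4GALT4 rose by 0.85 ± 0.17 (adjusted p = 0.00661) and 1.22 ± 0.24 (adjusted p = 0.00764).

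These counts stand beside 10.6% of all genes in the same comparison. In the comparison of treated with control day 7 over both arms, no gene of either list was called, and the medians were -0.07 for ligands and -0.05 for enzymes. Of 20 genes known to follow progesterone in the early luteal endometrium, 7 rose and 3 fell from control day 4 to control day 7. The lists share genes. ANPEP, counted above among the ligands, is also among those that rose here. CXCL10, counted among the interferon-stimulated genes, is also among those that fell. DGAT2, an enzyme of triglyceride synthesis, rose by 7.32 ± 0.69 (edgeR adjusted p = 8.21e-05), and PLIN2, a lipid droplet coat protein, by 2.28 ± 0.33 (adjusted p = 0.00176).

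Other members of the galectin family were nearly silent or had no row under their symbols. Of 13 further symbols, 4 had a row. LGALS2 had a count of 0 in all 18 libraries, LGALS12 reached 16 counts and was counted in 11 libraries, and GRIFIN reached 6 counts and was counted in 2. Only the galectin-like gene LGALSL passed the filter, with 432 to 1220 counts per library. Its mean was 29.5 ± 3.83, 28.8 ± 4.89 and 24.6 ± 5.18 CPM (SD, n = 3) in the 17-OHPC/P4 arm and 21.5 ± 4.19, 20.6 ± 9.04 and 19.2 ± 5.55 CPM in the P4 arm, in the order control day 4, control day 7 and treated day 7. It was called in none of the 13 comparisons.

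Across the 18 libraries, which come from 6 cows and share cow and day, the 6 genes did not follow one another closely. Pearson's r of log2 CPM between pairs ran from -0.41 for LGALS3 with LGALS3BP to 0.56 for LGALS1 with LGALS9. Among 14619 tested genes with a symbol on 1 row, those most like LGALS1 were DOCK4 (r = 0.905), TUBB6 (0.899) and PPP1R18 (0.898). Those most like LGALS9 were COTL1 (0.916), ZBP1 (0.909) and BCL2A1 (0.890).

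The genes most like LGALS3 were MYL12A (r = 0.857), ATP6V0D1 (0.848) and PDCD6 (0.832), and those most like LGALS4 were CKMT1A (0.919), PKP3 (0.886) and SEMA3G (0.872). LGALS8 was most like C2H2orf80 (0.860), SYNJ1 (0.849) and CGN1 (0.839), and LGALS3BP most like PLBD2 (0.893), SLC9B2 (0.893) and SLC27A1 (0.847). Each neighbour was the top of a search over the whole table, so these correlations describe these libraries only.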

How the data were processed

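The authors deposited 1 table of raw counts per gene, in whole numbers, for 18 libraries; cutadapt, FastQC, STAR, featureCounts and DESeq2 are named in the submitters' processing notes, and neither the build nor the strand setting of the counting was given in the sources used here. Overlapping and antisense genes could therefore not be told apart. Of the counts from 1 to 5, 79.1% were even, so a fragment may have been counted once per mate. The table held 0 columns of other samples, and 17715 of 38001 rows had no symbol. Genes were filtered with filterByExpr, which left 19638, scaled by TMM and fitted with 6 group means by edgeR 4.0.16 (quasi-likelihood F test, robust, R 4.3.3), with Benjamini-Hochberg adjustment across the 19638 genes and a threshold of 0.05. The steps were tested on simulated data. SE is the log2 change over the square root of F, and intervals are at 95%. Alternatives used DESeq2 1.42.0, limma 3.58.1 (voom), the cow as a block, other scaling or filters, and each library left out.

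The members and lists were chosen with earlier results of these data known. Named genes were the 6 members, other galectins that passed the filter, up to 3 called genes with the smallest p of each list for control day 7 against day 4, and the 3 genes most like each member. The letters of the labels were taken to name the cow, which the labels do not spell out, and libraries of 1 letter were treated as paired. Deviations from the group means correlated at a median of 0.375 within cows (-0.07 to 0.718, 18 pairs) and -0.144 between cows of an arm. Cows nest in arms, so the block cannot be used for levels between arms. The common dispersion corresponded to a coefficient of variation of 51.4% between libraries of a group (39.4% in the blocked fit).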

Additional observations from a re-analysis of the deposited data

How the results depend on the processing

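Over 190 alternatives for the counts of called genes, 172 stayed within the limits set for them, and over 546 alternatives for single genes 500 kept their direction and side of the threshold. Of 36 group means of CPM, 33 shifted by less than the SD of their group without TMM factors, and 3 shifted further. From control day 4 to control day 7 over both arms, 2 genes (LGALS3, LGALS8) were called with DESeq2's size factors, with DESeq2 and with a random block of cows (LGALS3 adjusted p = 0.0488, 0.0161 and 0.0483). In the P4 arm 2 were called (LGALS8 adjusted p = 0.0492, 0.0145, 0.0468 and 0.0230) with those size factors, DESeq2, the replicate block of cows in edgeR and the random block. DESeq2 called 1 gene (LGALS3) for the difference between arms in that change. Between treated day 7 and control day 4 of the P4 arm, 1 gene (LGALS1) was called by DESeq2 (adjusted p = 0.0185), with the replicate block (0.0331) and with only the compared groups (0.0203), and 2 (LGALS1, LGALS8) with the random block. For control day 4 between arms, 0 were called with only the compared groups. The block changed no other call of a member. The cause of these changes was not tested.

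With 1 library left out, the count between control days over both arms was 0 (without either control library of cow E) or 1, in the P4 arm alone it was 1 or 2 (2 without the control day 7 library of cow F), and on control day 4 between arms it was 0 (without cow E or cow F) or 1. The sign also depended on 1 library for values near 0. For treated against control day 7, in the 17-OHPC/P4 arm LGALS1 ran from -1.23 to 0.35, LGALS4 from -0.35 to 0.0408 and LGALS8 from -0.10 to 0.10. In the P4 arm LGALS3BP ran from -0.24 to 0.18, LGALS4 from -0.76 to 0.30 and LGALS8 from -0.24 to 0.0758. LGALS3 ran from -0.58 to 0.0371 between control days in the 17-OHPC/P4 arm and from -0.21 to 0.40 between arms on control day 7. LGALS4 ran from -0.46 to 0.13 between control days over both arms and from -0.55 to 0.52 between arms on treated day 7. Among other settings, LGALS4 of the P4 arm, treated against control day 7, became -0.00867 with DESeq2's size factors, -0.00885 with DESeq2, -0.0385 without the filter, -0.16 with voom and the replicate block, -0.17 with the random block and -0.0300 with only the compared groups. LGALS3 on control day 7 between arms became -0.10 with voom and the random block.

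DESeq2 called more genes of the whole table than edgeR, 3525 against 2073 between control days over both arms, 3401 against 1698 in the P4 arm and 2307 against 542 on control day 4 between arms. The no-filter fit called 187 in the last of these. The 6 genes had 307 to 10238 counts per library, and the precision of every comparison is limited by 3 cows in a group.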
